A study of Mus musculus with 4 samples.

Results

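The genes described here encode interleukin-2, its receptor and the proteins that carry and limit its signal: Il2, Il2ra, Il2rb, Il2rg, Stat5a, Stat5b, Socs1 and Cish. They were matched by symbol, and all 8 were found among the 31053 features of the series. Gene expression was measured in 4 mouse libraries by droplet-based single-cell RNA sequencing of the 5′ ends of transcripts, with 1 library per group. CD45+ leukocytes were sorted by flow cytometry from pancreata of 12-week-old females (4 mice pooled per library), and CD3+ T cells were taken with magnetic beads from pancreatic lymph nodes of 8-week-old females (5 mice pooled per library). All mice were described as pre-diabetic, and the strain background is not given in the sources used here. The control mice carried Ocabfl/fl, and the other mice Ocabfl/fl.CD4-Cre. Both genotypes thus carry floxed Ocab, the older name of Pou2af1, which encodes a transcriptional coactivator best known from B cells. Cre under Cd4 regulatory sequence acts in the T cell lineage from the thymus on, so CD8 T cells are included. The design asks how loss of Ocab from T cells bears on the T cells of pancreas and lymph node, and the classes below ask where in them the interleukin-2 pathway is expressed.

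Interleukin-2 is a growth and survival factor for lymphocytes that is made mainly by newly activated CD4 T cells. It binds a receptor of an alpha chain (CD25, encoded by Il2ra), a beta chain (CD122, Il2rb) and the common gamma chain (CD132, Il2rg). Alpha raises the affinity, whereas beta and gamma signal through JAK1 and JAK3 to STAT5, and are shared with the interleukin-15 receptor. Regulatory T cells, which express Foxp3, carry the alpha chain constitutively and take up interleukin-2 without making much of it. STAT5 induces Socs1 and Cish, whose products in turn restrain the pathway. The pathway has long been studied in autoimmune diabetes, in which regulatory T cells of the pancreas depend on it.

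T barcodes were taken from clusters made without the 8 genes, and were then divided by the UMIs (unique molecular identifiers, 1 per captured transcript) of gating genes that are none of the 8. Foxp3-positive barcodes held at least 1 Foxp3 UMI. CD4-only Foxp3-zero barcodes held Cd4 UMIs but no Cd8a, Cd8b1 or Foxp3 UMI, and CD8-only barcodes held Cd8a or Cd8b1 UMIs but no Cd4 or Foxp3 UMI. In the order pancreas control, pancreas CD4-Cre, lymph node control and lymph node CD4-Cre, there were 123, 206, 169 and 352 Foxp3-positive barcodes, 828, 1882, 1139 and 2382 CD4-only Foxp3-zero barcodes, and 429, 641, 686 and 1454 CD8-only barcodes. The pancreas held 263 and 352 natural killer (NK) barcodes. Conventional dendritic cells (cDC) numbered 107 and 121 in pancreas, from a cluster led by Xcr1 and Clec9a and a mature cluster led by Fscn1, and 88 and 32 in lymph node, from a mature cluster alone. Genes of the other conventional dendritic cell type (Cd209a, Mgl2) led a mixed pancreas cluster with Lyz1 and Fn1, which stayed unnamed and outside the class. The class names were rebuilt from expression, and a Foxp3-zero barcode can hold a Foxp3 transcript that was not captured.

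The libraries kept 4004, 6238, 2843 and 5304 barcodes, with medians of 3611, 3605, 4613 and 4407.5 UMIs. Pairs of libraries shared 21 to 70 barcode sequences. The targeted gene followed the labels: in CD4-only Foxp3-zero barcodes the pancreas libraries held 21 (control) and 3 (CD4-Cre) Pou2af1 UMIs, and the lymph node libraries held 37 and 1. Levels are given as CPM, the UMIs of a gene per 1000000 UMIs of the class and library. Their exact Poisson 95% intervals cover counting error only, since neither pooled mice nor preparations were repeated.

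The start regions of Il2, Il2ra and Socs1 are shown because they stand for the ligand, the receptor and the feedback of the pathway, and the bases printed lie outside annotated exons. Shown are the bases before the transcription start, 5′ to 3′ on the strand of the gene, from RefSeq (GRCm38.p6). For Il2 the last 5 bases before the start lie in an annotated exon and are not printed. The Il2 positions given below count them. The table of start regions held 7 of the 8 genes. Capitals mark matches to GGAAAA or its reverse complement TTTTCC, the core that NFAT factors bind; Il2 (chr3:37125960-37126204, minus strand) holds 2 of them, at 137 to 132 and at 48 to 43 bases before the start. Il2ra (chr2:11642542-11642791, plus strand) and Socs1 (chr16:10785537-10785786, minus strand) hold none.
Il2: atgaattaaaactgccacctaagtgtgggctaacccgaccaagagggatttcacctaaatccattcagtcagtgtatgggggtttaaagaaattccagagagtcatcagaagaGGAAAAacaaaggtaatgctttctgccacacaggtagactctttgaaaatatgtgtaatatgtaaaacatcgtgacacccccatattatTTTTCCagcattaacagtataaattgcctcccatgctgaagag
Il2ra: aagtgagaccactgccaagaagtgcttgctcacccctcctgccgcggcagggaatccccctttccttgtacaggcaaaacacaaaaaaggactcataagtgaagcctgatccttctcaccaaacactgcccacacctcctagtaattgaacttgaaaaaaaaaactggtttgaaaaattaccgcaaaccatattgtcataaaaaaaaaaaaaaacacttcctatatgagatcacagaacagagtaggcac
Socs1: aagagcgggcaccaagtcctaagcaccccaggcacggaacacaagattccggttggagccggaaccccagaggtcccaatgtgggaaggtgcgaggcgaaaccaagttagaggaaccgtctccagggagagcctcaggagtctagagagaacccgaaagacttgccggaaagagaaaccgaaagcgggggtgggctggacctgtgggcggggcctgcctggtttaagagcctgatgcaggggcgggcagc
Of 32851 RefSeq start regions of the same table, searched over 250 bases on both strands, 20.4% held a GGAAAA match and 2.85% held 2 or more. The STAT5 motif TTCNNNGAA, which reads the same on both strands, occurred in 7.02% of those regions and in none of the 9 windows that the table holds for the 7 members, each searched over its full 250 bases whether or not they are printed here. These matches describe letters in the windows and were not related to binding.

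Il2 was the rarest of the 8 transcripts, and in 3 of the 4 libraries a single barcode held a large part of its UMIs. The gene (ENSMUSG00000027720, chromosome 3, 37120523 to 37125959 in GENCODE M21, GRCm38) encodes the ligand. In CD4-only Foxp3-zero barcodes it had 8 UMIs in pancreas control (2.58 CPM), 12 in pancreas CD4-Cre (1.71 CPM), and 34 (6.17 CPM) and 30 (2.80 CPM) in the lymph node libraries of control and CD4-Cre mice. Foxp3-positive barcodes gave 1 UMI in each pancreas library and 0 in both lymph node libraries. CD8-only barcodes gave 2, 2, 2 and 1 UMIs, and NK and cDC barcodes gave 0. With counts this low Il2 did not pass the count filter of the fits between classes reported here, so they did not test it.

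Over all T barcodes Il2 had 22, 55, 40 and 31 UMIs in the 4 libraries, in 22, 27, 14 and 4 barcodes. The pancreas control UMIs were spread at 1 per barcode. In the other libraries a single barcode held 28, 17 and 28 of them. The pancreas CD4-Cre barcode with 28 Il2 UMIs had no Cd4, Cd8a or Cd8b1 UMI and lay in a cluster led by Tnfrsf4, Lag3 and Penk. It also held 6 Il2ra UMIs. In lymph node, 24 of 40 control UMIs in T barcodes and 28 of 31 CD4-Cre UMIs lay in a cluster led by Nr4a1, Nfkbid and Egr1, genes that are induced early after stimulation of the T cell receptor, but in only 3 barcodes and 1 barcode. In lymph node control a cluster led by Foxp3, Rgs1 and Tnfrsf4 held 9 Il2 UMIs in 4 barcodes. In pancreas a cluster led by Itgb1, Ikzf2 and Icos, with Foxp3 among its leading genes, held 13 Il2 UMIs in 13 barcodes of control and 17 in 16 barcodes of CD4-Cre. Of that pancreas cluster, 51 of 369 control and 91 of 690 CD4-Cre barcodes were Foxp3-positive. None of the barcodes that held Il2 in it, or in the lymph node cluster led by Foxp3, was in the Foxp3-positive class. The plot of Il2 UMIs per barcode shows this concentration.

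**Figure D1:**
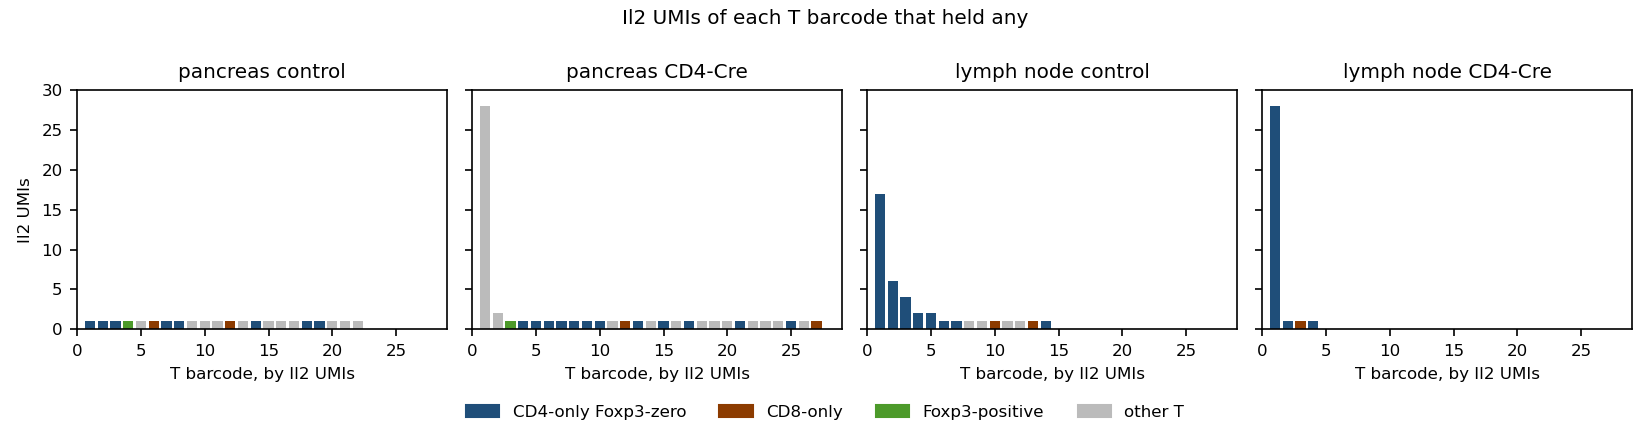
Il2 UMIs of every T barcode that held any, by library, ordered from the highest and coloured by class. Bars are UMIs of single barcodes: pancreas control holds 1 UMI in each of 22 barcodes, whereas the highest barcodes of the other libraries hold 28, 17 and 28.

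Il2ra, which encodes the alpha chain (ENSMUSG00000026770, chromosome 2, 11642807 to 11693193), was highest in Foxp3-positive barcodes of every library. Its level there was 194 CPM (95% interval 162 to 231) in pancreas control, 168 CPM (145 to 194) in pancreas CD4-Cre, and 266 CPM (232 to 304) and 246 CPM (222 to 273) in the lymph node libraries. CD4-only Foxp3-zero barcodes had 8.05, 11.2, 12.2 and 9.16 CPM in that order, and no library of one class overlapped the range of the other. The edgeR fit with the library as a block put Foxp3-positive barcodes 4.23 higher on the log2 scale (SE 0.14, adjusted p 1.03e-09, higher in 4 of 4 libraries). That fit tested 9039 genes and called 16.6% of them at an adjusted p under 0.05, in either direction. Within the Foxp3-positive class, barcodes with 1 Foxp3 UMI had 106, 135, 145 and 119 CPM, and barcodes with at least 2 had 221, 186, 319 and 321 CPM.

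Detection of Il2ra showed the same order. After thinning each barcode to 1000 UMIs, 17.9%, 14.3%, 17.8% and 19.9% of Foxp3-positive barcodes held an Il2ra UMI, against 0.607% to 1.23% of CD4-only Foxp3-zero barcodes. Pancreas B barcodes, which served as background, gave 0.346% and 0.155%, and pancreas neutrophils gave 0 of 128 and 0 of 71. Median depths were 3326 to 4065 UMIs in Foxp3-positive and 3559.5 and 3387 UMIs in pancreas B barcodes. The CD4-only share of pancreas control, 0.607% with a Clopper-Pearson 95% interval from 0.197% to 1.41%, overlapped the interval of B barcodes in that library, 0.0713% to 1.01%. Without thinning, 38.2%, 31.1%, 42.6% and 40.3% of Foxp3-positive barcodes held an Il2ra UMI.

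In CD8-only barcodes Il2ra was low and differed by tissue. It was 16.8 and 11.8 CPM in the pancreas libraries and 2.05 and 2.07 CPM in the lymph node libraries. Against CD4-only Foxp3-zero barcodes the fit gave a log2 difference of -0.73 (SE 0.47, adjusted p 0.368 by edgeR), higher in 2 of 4 libraries. The difference between tissues was itself past the threshold: the CD8-only against CD4-only value was 2.58 higher on the log2 scale in pancreas than in lymph node (SE 0.40, adjusted p 0.000258 by edgeR), in a test that called 7.86% of 9784 genes. Both pancreas libraries differed in one direction and both lymph node libraries in the other, but in pancreas CD4-Cre the classes were close, at 11.8 CPM (8.30 to 16.4) in CD8-only and 11.2 CPM (8.90 to 14.004) in CD4-only Foxp3-zero barcodes. Tissue, age and cell selection differ together here and cannot be told apart. Of the pancreas UMIs, 10 of 33 in control and 8 of 36 in CD4-Cre came from 1 barcode. Without the top barcode of each class, pancreas CD4-Cre had 9.28 CPM in CD8-only and 10.6 CPM in CD4-only Foxp3-zero barcodes, so its direction turned, and pancreas control had 12.0 and 6.45 CPM.

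Il2rb, which encodes the signalling beta chain (ENSMUSG00000068227, chromosome 15, 78479256 to 78495271), was highest in NK barcodes, then in Foxp3-positive, CD8-only and CD4-only Foxp3-zero barcodes, in that order in each library that held them. NK barcodes had 1464 and 1567 CPM. Foxp3-positive barcodes had 637, 513, 645 and 570 CPM, CD8-only barcodes had 316, 309, 161 and 156 CPM, and CD4-only Foxp3-zero barcodes had 134, 135, 63.3 and 47.8 CPM. The ranges over libraries of these classes did not overlap. Foxp3-positive barcodes were 2.58 higher than CD4-only Foxp3-zero barcodes on the log2 scale (SE 0.23, adjusted p 6.74e-06 by edgeR, higher in 4 of 4 libraries). CD8-only barcodes were 1.41 higher (SE 0.11, adjusted p 9.51e-05 by edgeR, higher in 4 of 4 libraries), in a fit that called 14% of 9784 genes. Pancreas B barcodes had 6.66 and 5.27 CPM.

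The Foxp3 difference in Il2rb was smaller in pancreas than in lymph node, by 1.45 on the log2 scale (SE 0.12, adjusted p 2.65e-07 by edgeR). That test called 4.91% of 9039 genes. Foxp3-positive levels overlapped between tissues, whereas CD4-only Foxp3-zero levels were 134 and 135 CPM in pancreas and 63.3 and 47.8 CPM in lymph node. NK markers are given beside these values, since the Il2rb level was highest in NK barcodes. The 6 NK markers summed to 1372 and 679 CPM in pancreas CD8-only barcodes, to 393 and 40.6 CPM in pancreas Foxp3-positive barcodes and to 81.8 and 54.6 CPM in pancreas CD4-only Foxp3-zero barcodes, against 14270 and 12325 CPM in NK barcodes. In lymph node they summed to 42.5 and 40.4 CPM in CD8-only and to 3.36 to 6.78 CPM in the other T classes, with Ncr1 at 0 in all of them. Like Il2rb they were higher in CD8-only than in CD4-only Foxp3-zero barcodes in both tissues, and their part in the Il2rb differences was not tested.

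Il2rg, which encodes the common gamma chain (ENSMUSG00000031304, chromosome X, 101264378 to 101268255), was present at like levels in all T and NK classes. It had 663, 731, 711 and 760 CPM in Foxp3-positive, 586, 702, 818 and 801 CPM in CD4-only Foxp3-zero, 512, 626, 786 and 756 CPM in CD8-only and 586 and 663 CPM in NK barcodes. The ranges of these classes overlapped. Neither class test passed the threshold (log2 -0.20, SE 0.09, adjusted p 0.142 for Foxp3-positive and -0.08, SE 0.08, adjusted p 0.531 for CD8-only, both by edgeR). cDC barcodes had 221, 244, 243 and 413 CPM. Thinned detection was 36.5% and 42.4% in pancreas B barcodes, and 1 of 128 and 1 of 71 in neutrophils.

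The chains were also read together in single barcodes, first without thinning. An Il2ra and an Il2rb UMI occurred together in 26.8%, 26.7%, 36.7% and 35.2% of Foxp3-positive barcodes and in 1.39% to 1.93% of CD4-only Foxp3-zero barcodes. After thinning to 1000 UMIs these shares were 8.94%, 5.42%, 8.28% and 12.5% against 0.126% to 0.527%. Il2rb without Il2ra was found in 97.7% and 94.9% of NK barcodes and in 53.4%, 49.9%, 48.4% and 47.2% of CD8-only barcodes. Thinned, it was found in 75.2% and 75.6% of NK and in 19.7%, 21.6%, 13.3% and 12.5% of CD8-only barcodes. The plot of levels by class gives all 8 genes side by side.

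**Figure D2:**
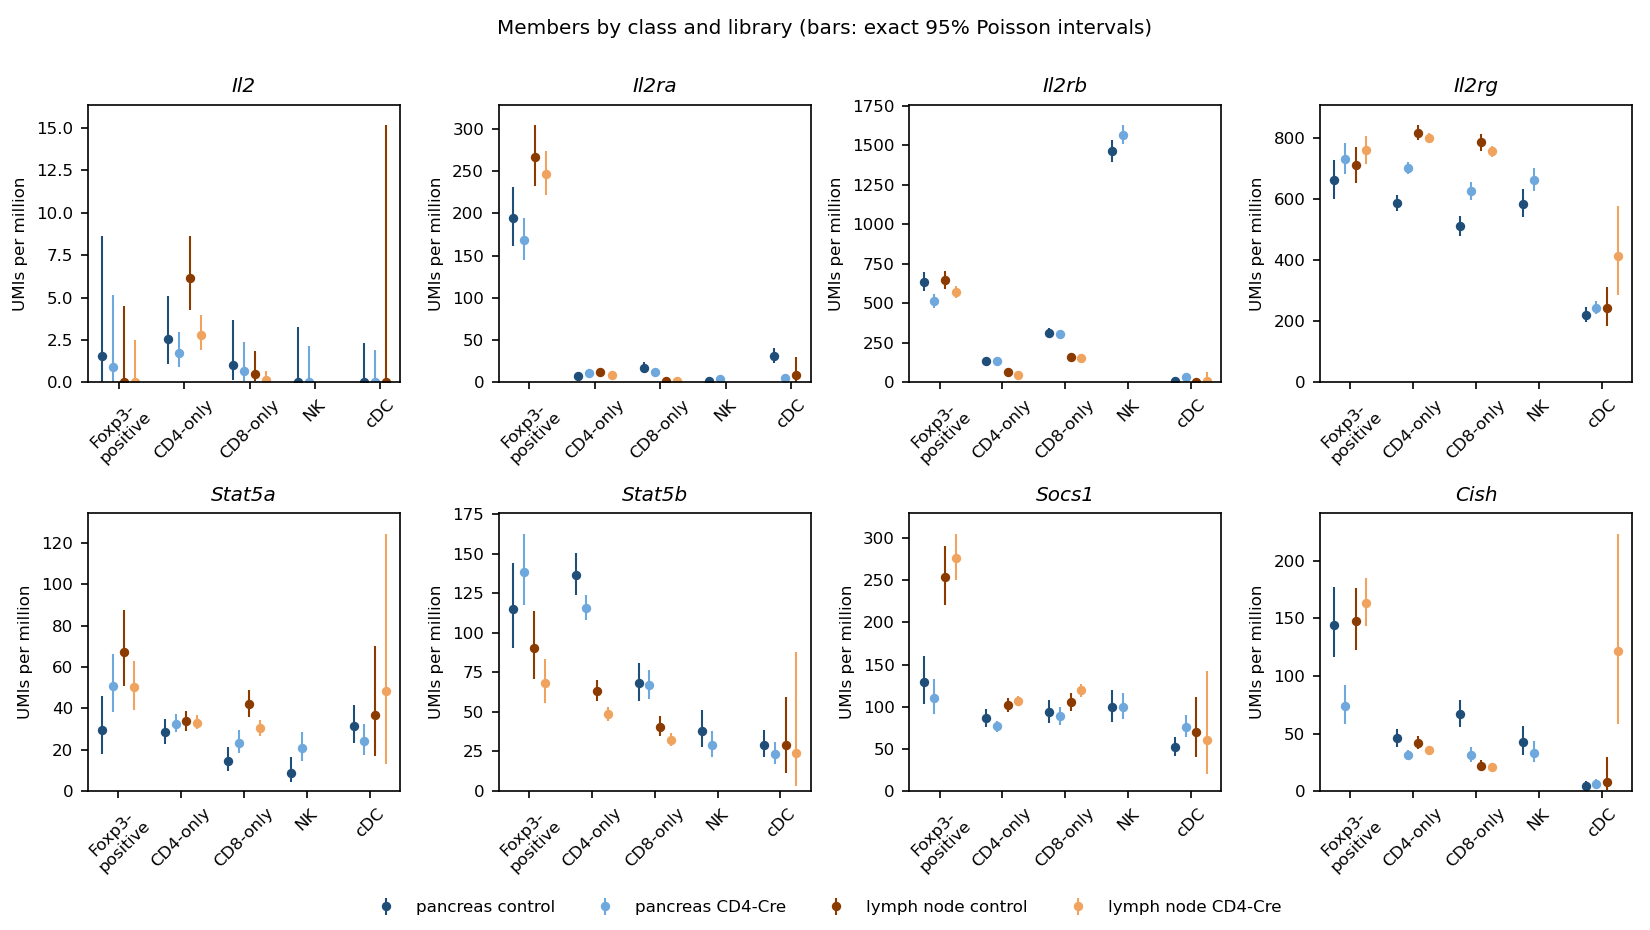
Level of each member in CPM (linear axes that differ between panels) by class, coloured by library. Points are sums over all barcodes of a class and bars are exact 95% Poisson intervals, with a level of 0 left out where a class holds under 50 barcodes. Il2ra stands at 168 to 266 in Foxp3-positive barcodes, Il2rb at 1464 and 1567 in NK barcodes, and Il2rg overlaps between the T classes.

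Of the STAT5 pair, which share most of their protein sequence and lie side by side on chromosome 11, Stat5b varied between classes and Stat5a did not pass a class test. Stat5a (ENSMUSG00000004043) had 29.5, 50.8, 67.2 and 50.2 CPM in Foxp3-positive barcodes and 28.3, 32.6, 33.7 and 33.2 CPM in CD4-only Foxp3-zero barcodes. It was higher in the Foxp3-positive class in 4 of 4 libraries, with a log2 difference of 0.45 that did not pass (SE 0.15, adjusted p 0.0592 by edgeR). In pancreas control the 2 levels were nearly equal. NK barcodes had 8.85 and 20.8 CPM, from 10 and 36 UMIs.

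Stat5b (ENSMUSG00000020919) had 137, 116, 63.1 and 48.5 CPM in CD4-only Foxp3-zero barcodes and 68.2, 66.8, 40.7 and 32.2 CPM in CD8-only barcodes. The CD8-only class was lower by 0.71 on the log2 scale, a log2 difference of -0.71 (SE 0.10, adjusted p 0.00228 by edgeR), in 4 of 4 libraries. Foxp3-positive barcodes had 115, 138, 90.4 and 68.5 CPM and did not differ past the threshold from CD4-only Foxp3-zero barcodes (log2 0.07, SE 0.13, adjusted p 0.793). In all 3 T classes both pancreas libraries lay above both lymph node libraries. Neutrophils, in which STAT5 also acts, held a Stat5b UMI in 12.5% and 14.1% of thinned barcodes.

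The feedback genes were raised in Foxp3-positive barcodes. Cish (ENSMUSG00000032578, chromosome 9, 107296026 to 107302784), whose product binds activated cytokine receptors, had 144, 73.9, 148 and 164 CPM there and 45.7, 31.3, 41.7 and 35.6 CPM in CD4-only Foxp3-zero barcodes. The groups did not overlap. The log2 difference was 1.59 (SE 0.14, adjusted p 6.51e-06 by edgeR, higher in 4 of 4 libraries). In CD8-only barcodes Cish had 66.7, 30.9, 21.5 and 20.9 CPM, so that pancreas control stood apart from the other 3. Against CD4-only Foxp3-zero barcodes the fit gave -0.28 (SE 0.19, adjusted p 0.382 by edgeR).

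Socs1 (ENSMUSG00000038037, chromosome 16, 10782240 to 10785536), which encodes an inhibitor of JAK kinases, had 129, 111, 254 and 277 CPM in Foxp3-positive barcodes and 86.3, 76.7, 102 and 106 CPM in CD4-only Foxp3-zero barcodes. It was higher in 4 of 4 libraries by 0.82 on the log2 scale (SE 0.15, adjusted p 0.00158 by edgeR). The lymph node libraries were the high ones, and the difference was 0.85 smaller in pancreas on the log2 scale (-0.85, SE 0.15, adjusted p 0.000871 by edgeR). With the library left out of the fit, Socs1 was not called (adjusted p 0.116), and in that fit neither Il2rb (0.0978) nor Stat5b (0.322) passed between CD8-only and CD4-only Foxp3-zero barcodes. CD8-only barcodes had 93.2, 88.8, 105 and 119 CPM of Socs1 and NK barcodes 99.1 and 99.8 CPM.

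In the Foxp3 comparison 4 of the 7 members tested were thus higher and none was lower, where 16.6% of all genes were called (815 higher and 686 lower), and their median log2 difference was 0.82, beside -0.01 over all 9039 genes tested. Between CD8-only and CD4-only Foxp3-zero barcodes 1 of 7 was higher and 1 lower, where 14% of all genes were called, with a median of -0.12 beside 0.00093 over all 9784. The p-values measure how evenly a class difference repeats over 4 libraries that differ in tissue, age, selection and genotype. The plot of class differences shows the members in both class comparisons.

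**Figure D3:**
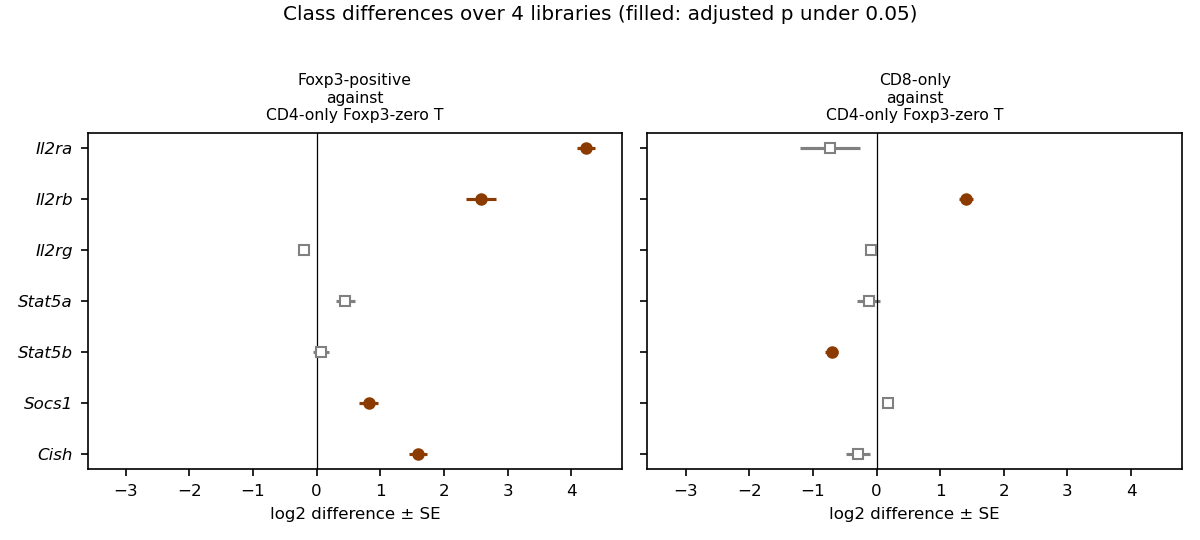
Log2 difference between classes of the 7 members tested, from edgeR fits with the library as a block, in 2 comparisons. Points are estimates and bars 1 SE; filled circles passed an adjusted p under 0.05 and open squares did not. Il2ra, at 4.23, and Il2rb, at 2.58, are farthest to the right in the Foxp3 comparison, and Il2rb is filled in both panels.

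A further gate used genes that are raised in effector and memory T cells. Barcodes called experienced-marked held at least 2 UMIs over Ccl5, Nkg7, Cxcr3, S100a4 and Id2. Among CD4-only Foxp3-zero barcodes 27.2% and 26.1% were experienced-marked in pancreas and 13.3% and 9.24% in lymph node, and among CD8-only barcodes 82.7% to 91.6% were. Among CD8-only barcodes the gate was thus broad and did not single out effector or memory cells: in lymph node it took 587 and 1233 barcodes, whereas the cluster led by Ccl5 and Gzmk held 91 and 164, and Nkg7 was a leading gene of the largest CD8 cluster there, with Ccr9 and Itgae (591 and 1234 barcodes). Il2rb had 352, 343, 166 and 134 CPM in experienced-marked CD4-only and 335, 338, 170 and 164 CPM in experienced-marked CD8-only barcodes, higher in both pancreas libraries than in both lymph node libraries in each. Il2ra had 23.1, 20.2, 12.7 and 21.2 CPM in experienced-marked CD4-only barcodes, where the tissues overlapped. In experienced-marked CD8-only barcodes it had 17.4, 13.1, 0.577 and 0.681 CPM, and the tissues did not overlap. Cish had 111, 68.7, 52.0 and 36.2 CPM in experienced-marked CD4-only barcodes, with both pancreas libraries above both lymph node libraries. These levels were not tested.

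The wider pathway was read from lists of sister cytokines, receptors, kinases, feedback genes, STAT5 targets and regulators of Il2. In the Foxp3 comparison the sister receptor Il7r, for interleukin-7, had 200, 228, 109 and 83.5 CPM in Foxp3-positive barcodes against 683, 755, 355 and 276 CPM, lower by 1.92 on the log2 scale (-1.92, SE 0.09, adjusted p 2.18e-08 by edgeR). Il21r rose by 0.37, and 2 further receptors of the 4 tested did not pass. Il21, the only sister ligand tested, was lower (log2 -1.89, adjusted p 0.0148 by edgeR), with 4.66, 5.54, 0 and 0 CPM against 13.8, 10.95, 4.35 and 2.62 CPM. These counts are low: the Foxp3-positive level of pancreas control equals the floor of 3 UMIs (4.66 CPM), and both lymph node libraries held none.

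Among 11 kinases, adaptors and phosphatases 1 rose and 3 fell in Foxp3-positive barcodes, beside 16.6% of all genes called in either direction. Jak3, the kinase bound to the common gamma chain, had 77.6, 111, 89.2 and 97.02 CPM against 48.6, 50.2, 47.9 and 46.3 CPM (log2 0.79, SE 0.11, adjusted p 0.000232 by edgeR), with no overlap. The phosphatase gene Ptpn6 (log2 -0.35), the lymphocyte PI3-kinase gene Pik3cd (log2 -0.42) and Jak1 (log2 -0.32), whose product binds the beta chain, fell. Of the 4 other feedback genes 2 rose and none fell: Socs2 rose by 2.51 on the log2 scale and Dusp5, a phosphatase of the ERK pathway, by 0.87.

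Of 12 STAT5 targets tested 4 rose and 3 fell, again beside 16.6% of all genes. Tnfrsf4, which encodes OX40, had 1151, 835, 432 and 615 CPM in Foxp3-positive barcodes against 128, 101, 58.4 and 57.2 CPM (log2 2.95, SE 0.10, adjusted p 1.26e-09 by edgeR). Tnfrsf18, which encodes GITR, rose by 1.54 and the kinase gene Pim1 by 1.14. The list does not move as one, since Ccnd3, Ccnd2 and Pim2 fell. Of 8 regulators of Il2 transcription 3 rose and 2 fell, in the same fit. Ikzf3 rose by 1.30 and Prdm1, a repressor of Il2, by 2.28, whereas Ikzf1 fell by 0.98 on the log2 scale. The medians of the lists were -0.08 for receptors, -0.06 for kinases, 0.38 for feedback genes, 0.22 for STAT5 targets and 0.28 for regulators.

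Between CD8-only and CD4-only Foxp3-zero barcodes 2 of the 12 STAT5 targets rose and 4 fell, beside 14% of all genes called. Tnfrsf4 fell by 2.16 on the log2 scale, Lta, which encodes lymphotoxin, by 0.72 and Pim1 by 0.51. Pim2 rose by 0.85. The interleukin-4 receptor gene Il4ra fell by 0.76 and Il21 by 3.55. Of the feedback genes Socs2 and Socs3 fell, by 1.73 and 0.57. Of 11 kinases, adaptors and phosphatases Jak3 (log2 0.34) and Pik3cd (log2 0.38) rose and Shc1 (log2 -0.43) and Pik3r1 (log2 -0.24) fell. Among the regulators Ikzf3 rose by 1.28 and Nfatc2 fell by 0.43.

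Between genotypes 1 library stood against 1, so no test was made and no p is given. A member was counted as different where the ratio of CD4-Cre over control was past 1.5-fold, its exact 95% counting interval left out 0 on the log2 scale, and at least 20 UMIs were counted over both libraries. In pancreas that rule took 6.2% of all genes in Foxp3-positive, 4.77% in CD4-only Foxp3-zero, 6.86% in CD8-only, 5.74% in NK and 9.1% in cDC barcodes. In lymph node it took 5.69%, 4.58% and 5.02% in the 3 T classes and 11.6% in cDC barcodes. The receptor genes Il2ra, Il2rb and Il2rg were within 1.5-fold in the Foxp3-positive, CD4-only Foxp3-zero and CD8-only classes of both tissues. For Il2ra in Foxp3-positive barcodes the log2 ratio was -0.21 (-0.54 to 0.13) in pancreas and -0.11 (-0.36 to 0.14) in lymph node. With at most 5% mitochondrial UMIs Il2ra met the rule in lymph node CD4-only Foxp3-zero barcodes (log2 -0.69).

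Cish was lower in pancreas CD4-Cre than in pancreas control. It had 93 UMIs (144 CPM) in control and 80 UMIs (73.9 CPM) in CD4-Cre Foxp3-positive barcodes, a log2 ratio of -0.97 (-1.42 to -0.52). In CD8-only barcodes it had 131 UMIs (66.7 CPM) and 94 UMIs (30.9 CPM), a log2 ratio of -1.11 (-1.51 to -0.72). The counts were spread over 42 and 51 Foxp3-positive and over 83 and 60 CD8-only barcodes. The ratio was -0.55 in CD4-only Foxp3-zero and -0.34 in NK barcodes (42.5 and 33.5 CPM), which did not meet the rule. In lymph node it was 0.15 in Foxp3-positive, -0.23 in CD4-only Foxp3-zero and -0.04 in CD8-only barcodes.

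The clusters that held these barcodes differed between the pancreas libraries. Of CD8-only barcodes, 24.7% in control and 45.7% in CD4-Cre lay in a cluster led by Cd8b1 and Ccr9, with 1 Cish UMI in each library. A cluster led by Cd8a, Gzmk and Ccl5 held 53.6% and 37.9%, with Cish at 77.3 CPM (60.9 to 96.8) and 51.0 CPM (38.6 to 66.1). Overlap of these intervals of single levels does not stand in for the rule on ratios, which was not applied within clusters. A cluster led by Cx3cr1, S1pr5 and Klrg1 held 9.79% and 1.09%, with 29 Cish UMIs (238 CPM) and 1 Cish UMI. The shares of these clusters thus differed between the libraries, and Cish was also lower in CD4-Cre inside the cluster led by Cd8a, Gzmk and Ccl5. The part of either in the CD8-only ratio was not tested. Foxp3-positive barcodes lay mainly in a pair of clusters at like shares. The cluster led by Tnfrsf4, Lag3 and Penk held 44.7% and 46.6%, with Cish at 216 CPM (167 to 275) and 110 CPM (84.3 to 141), and the cluster led by Itgb1, Ikzf2 and Icos held 41.5% and 44.2%, with 83.5 CPM (45.7 to 140) and 43.6 CPM (23.9 to 73.2).

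In experienced-marked pancreas CD4-only barcodes Cish had 111 CPM in control and 68.7 CPM in CD4-Cre (log2 -0.69, -1.05 to -0.33), which met the rule. Experienced-marked CD8-only barcodes of pancreas had 71.2 and 35.1 CPM (log2 -1.02). They held the same 131 and 94 Cish UMIs as the whole CD8-only class, so that ratio is not a separate observation. All pancreas T barcodes together (log2 -0.68) also met the rule, but they contain the classes given above. The share of all genes that met the rule in these sets is not given here. NK markers moved in the same direction as Cish: their sum was 393 and 40.6 CPM in pancreas Foxp3-positive barcodes, with 4 of 6 above the floor of 3 UMIs in each and Klri2 at 0 in control and Klrb1c in CD4-Cre, and 1372 and 679 CPM in pancreas CD8-only barcodes, with 6 and 5 of 6 above it. Their part in the Cish difference was not tested. The plot of Cish by sub-gate sets these values against lymph node.

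**Figure D4:**
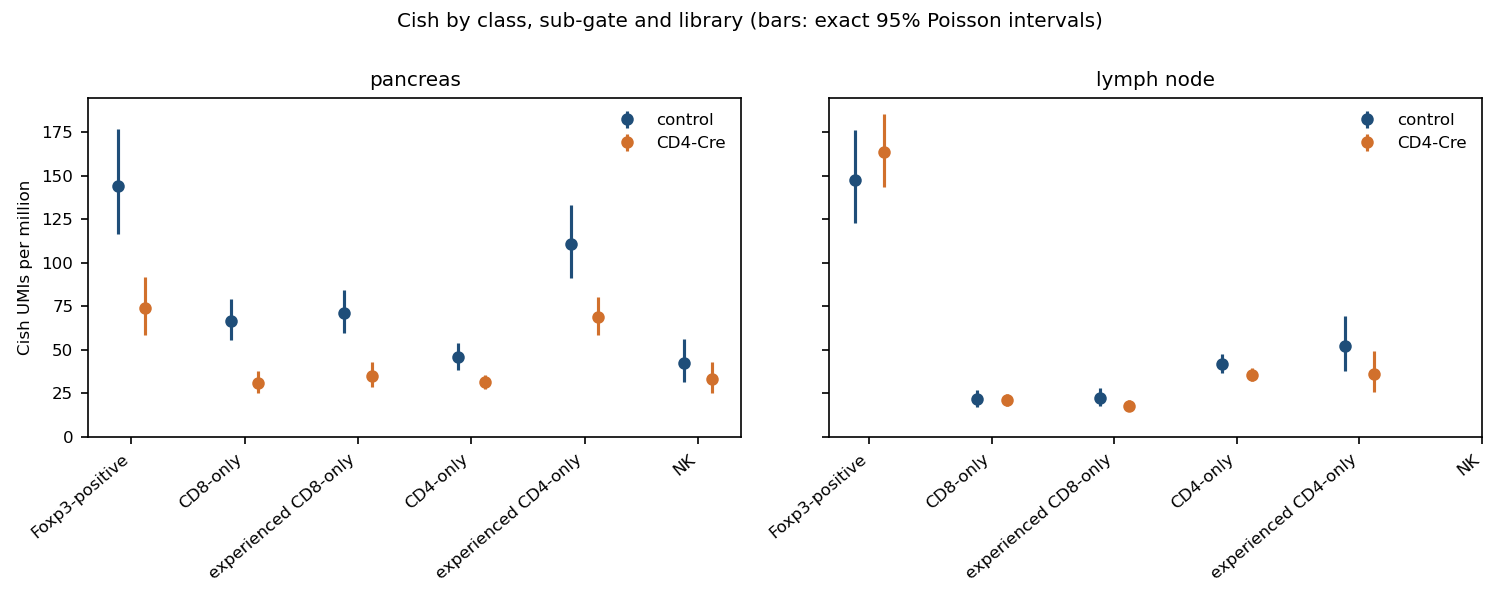
Cish level in CPM (linear axis from 0) by class and sub-gate, in pancreas (left) and lymph node (right), for control and CD4-Cre libraries. Points are sums over barcodes and bars exact 95% Poisson intervals; lymph node held no NK class. Pancreas Foxp3-positive barcodes stand at 144 and 73.9 and CD8-only barcodes at 66.7 and 30.9, whereas the lymph node pairs overlap.

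Stat5a was higher in pancreas CD4-Cre in 3 classes, each time at low counts. Foxp3-positive barcodes had 19 and 55 UMIs (log2 0.78, 0.0081 to 1.62), CD8-only barcodes 29 and 71 UMIs (log2 0.66, 0.020 to 1.34) and NK barcodes 10 and 36 UMIs (log2 1.23, 0.19 to 2.41). The lower bounds lie near 0 in both T classes, and without removal of doublets the Foxp3-positive ratio was 0.49 (-0.21 to 1.24). Experienced-marked pancreas CD4-only barcodes met the rule as well, with 21 and 78 UMIs (log2 0.79, 0.082 to 1.56). Pancreas CD4-only Foxp3-zero barcodes as a whole (log2 0.20) and experienced-marked CD8-only barcodes (log2 0.59, -0.093 to 1.30) did not. In lymph node the ratios were below 0 in all 3 T classes, from -0.46 to -0.03. In NK barcodes the 6 T markers summed to 923 and 1067 CPM. Cd3e, which is among them, went from 101 to 181 CPM, a larger relative rise than that of the sum. The part of these markers was not tested.

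Il2 was lower in lymph node CD4-Cre than in control CD4-only Foxp3-zero barcodes by the rule (log2 -1.14, -1.90 to -0.39, from 34 and 30 UMIs). A single barcode held 17 of the 34 and 28 of the 30 UMIs. Without the top barcode of each library the log2 ratio was -4.05, from 17 and 2 UMIs, which is under the count minimum. The ratio thus rests on few barcodes in either form. In pancreas the same class gave -0.59 (-2.01 to 0.90).

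In cDC barcodes of the pancreas Il2ra was lower and Il2rb higher in CD4-Cre. For Il2ra 49 UMIs were counted in the control library and 10 in the CD4-Cre library (31.0 and 5.25 CPM, log2 -2.56, -3.71 to -1.56), in 14 and 5 barcodes, and the highest single barcodes held 13 and 4. The mature cluster held 45 and 9 of these UMIs. Il2rb had 13 and 65 UMIs (log2 2.05, 1.18 to 3.04). NK markers summed to 12.0 and 69.3 CPM and T markers to 145 and 267 CPM in these barcodes, so lymphocyte transcripts were higher with Il2rb; their part was not tested. Without removal of doublets the Il2rb ratio was 0.48. B markers summed to 761 and 1099 CPM. Il2rb also met the rule in pancreas macrophage barcodes, with 14 and 24 UMIs (log2 1.07, 0.063 to 2.14), so cDC barcodes were not alone in meeting it. The lower bound there lies near 0, and the share of all genes that met the rule in macrophage barcodes is not given here. In lymph node cDC, where Il2rg was higher (59 and 34 UMIs, log2 0.77, 0.12 to 1.40), T markers summed to 625 and 1374 CPM, and the ratio was 0.52 with TMM scaling. No member met the rule in pancreas CD4-only Foxp3-zero, lymph node Foxp3-positive or lymph node CD8-only barcodes, with 8, 7 and 7 members counted.

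**Figure D5:**
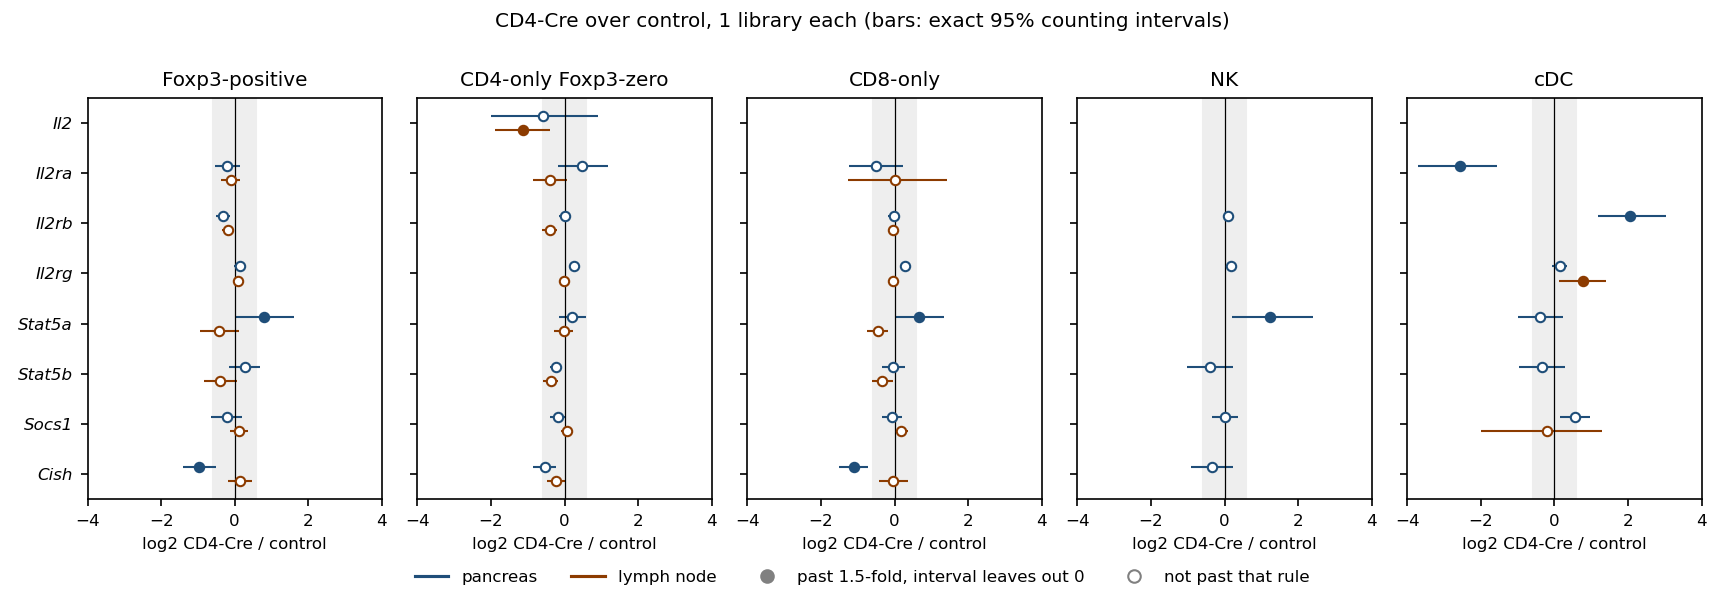
Log2 ratio of CD4-Cre over control for each member with at least 20 UMIs, by class, in pancreas and lymph node. Points are ratios of 1 library to 1 library, bars exact 95% counting intervals, the grey band 1.5-fold in either direction, and filled points meet the rule. Cish is filled at -0.97 and -1.11 in pancreas Foxp3-positive and CD8-only barcodes, and the receptor genes lie in the band in all T classes.

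Other pathway genes met the rule too, and counts or levels are given for some of them. They were named after their values were seen. In the classes below the rule took 4.58% to 6.86% of all genes, and the number of listed genes counted is not given here. In pancreas CD8-only barcodes Dusp5 fell from 152 to 124 UMIs (77.4 and 40.8 CPM, log2 -0.92), Il15ra from 30 to 20 UMIs (log2 -1.21), and Prdm1 (log2 -0.74) and Nfatc2 (log2 -0.59) were lower, while Myc was higher with 85 and 222 UMIs (log2 0.76). Pancreas Foxp3-positive barcodes had lower Pim2 (log2 -0.80), Nfatc2 (log2 -0.80) and Prdm1 (log2 -0.69). Pancreas CD4-only Foxp3-zero barcodes had lower Socs2 (34.8 and 20.2 CPM, log2 -0.78). In lymph node Foxp3-positive barcodes Tyk2 (log2 -1.28), Dusp6 (log2 -1.16), Ikzf1 (log2 -0.65) and Nfkb1 (log2 -0.61) were lower. In lymph node CD4-only Foxp3-zero barcodes Bcl2l1 was lower (log2 -0.66), and in CD8-only barcodes Osm was lower (log2 -0.76) and Sos1 higher (log2 0.77). In lymph node the median ratio of all genes was -0.06 in Foxp3-positive, -0.08 in CD4-only Foxp3-zero and -0.11 in CD8-only barcodes.

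Likeness of pattern was taken as Pearson's r of log2(CPM + 10) over 18 sums of class and library, as a description; sums of 1 library share depth and preparation. Ikzf4, which encodes the transcription factor Eos, was most like Il2ra (r = 0.966), followed by Cnpy2 (0.966) and Foxp3 (0.946), which the gate itself uses. Mmd, Ptk2b and Pear1 were most like Il2rb (0.950, 0.949 and 0.934). Sec11a, Arhgef1 and Cd27 were most like Il2rg (0.973, 0.965 and 0.959). For Socs1 they were Hdac1, Gpr83 and Tspan6 (0.911, 0.902 and 0.890), and for Cish 2310001H17Rik, Atp9a and Cdc26 (0.930, 0.911 and 0.904). For Stat5a they were Rgs10, Fto and Srfbp1 (0.866, 0.862 and 0.853), and for Stat5b Podnl1, Btg1 and Cdkn1b (0.924, 0.909 and 0.908). Among the members themselves r ran from -0.24 for Il2rb with Stat5a to 0.69 for Il2ra with Socs1.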

How the data were processed

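The deposited files hold UMI counts per gene and barcode, which the authors made with Cell Ranger on mm10, per the submitters' processing notes (software version 3.0.0, per the file headers). Barcodes with under 500 genes or over 10% mitochondrial UMIs and simulated-neighbour doublet scores (0.8% per 1000 barcodes; 164, 388, 75 and 341 removed) were left out. Each tissue was clustered with scanpy 1.11.5 (2000 variable genes, 30 components, 15 neighbours, Leiden resolution 1) without the 8 members. Receptor segment, immunoglobulin, haemoglobin and insulin genes were also left out of the clustering, and T clusters had to hold 4 markers in 30% of barcodes; both were chosen after a first clustering was seen.

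Counts were summed per class and library (at least 20 barcodes) and tested with edgeR 4.0.16 (quasi-likelihood, library as block, Benjamini-Hochberg over all genes tested, threshold 0.05) in R 4.3.3; the SE is the log2 difference over the root of F. DESeq2 1.42.0 was an alternative. The fits were tested on simulated data: for Foxp3-positive against CD4-only Foxp3-zero barcodes, over 9043 genes, 47 of 50 genes changed 2-fold were recovered, with 8 false calls among 8843. Of 50 genes changed 1.5-fold, 23 were recovered, so a difference of that size can go uncalled. The tests between tissues and the Cish levels by cluster were added after the data were seen. All intervals and floors (3 counts) cover counting error only. Thinning drew 1000 UMIs per barcode. Of 4 planned class comparisons 2, between sub-gates, and their alternatives are not reported here. Named pathway genes were, per list and comparison, up to 3 called genes with the lowest adjusted p; further called genes and those met between genotypes were named after their values were seen. The members and lists were chosen with earlier results of these data known. Gene positions are from GENCODE M21.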

Additional observations from a re-analysis of the deposited data

Results flagged for a closer look

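The class differences below differed between pancreas and lymph node by edgeR's test of the difference, or had opposite signs in every library of the 2 tissues. Tissue, age and cell selection cannot be told apart in these values, and genotype is balanced over both tissues. All are log2 values, pancreas minus lymph node, over 2 libraries per tissue.

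For Foxp3-positive against CD4-only Foxp3-zero barcodes the difference was -1.45 for Il2rb and -0.85 for Socs1. Il2rg had opposite signs in the 2 tissues, with a difference of 0.20 that did not pass the test (adjusted p 0.227 by edgeR).

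For CD8-only against CD4-only Foxp3-zero barcodes the difference was 2.58 for Il2ra and 0.93 for Cish (adjusted p 0.00175 by edgeR). It was -0.49 for Il2rb, -0.27 for Il2rg (adjusted p 0.0433 by edgeR), -0.84 for Stat5a (0.0135) and -0.43 for Stat5b (0.0405). The Il2ra signs were opposite in every library of the 2 tissues, narrowly so in pancreas CD4-Cre, where the sign turned without the top barcode of each class.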

How the results depend on the processing

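In the Foxp3 comparison Il2ra, Il2rb and Cish kept their direction and stayed past the threshold in 15 of 15 alternatives each. Over members and alternatives together, 97 of 105 values kept direction and side there and 87 of 90 for CD8-only against CD4-only. Cish met the rule between genotypes under every alternative run, from -0.88 to -0.99 in pancreas Foxp3-positive and from -0.91 to -1.32 in pancreas CD8-only barcodes. No cause of the changes below was tested.

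The count of all genes called was 1501 in the Foxp3 comparison and became 714 with thinned barcodes; leaving out 1 library at a time gave 1173 to 1297. For CD8-only against CD4-only the 1370 became 875 with DESeq2 and 560 with thinning, and 803 to 1185 without 1 library.

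With no replicate block the counts were 629 and 375 in these comparisons, and the members called were 0 for CD8-only against CD4-only. Without the block the log2 value of Stat5b in the Foxp3 comparison was -0.014. The fits with the library as a block are paired analyses of the classes; a fit between genotypes over both tissues, with tissue as a block, was not run.

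Members called without 1 library numbered 4 to 5 in the Foxp3 comparison and 2 to 3 for CD8-only against CD4-only. Il2 entered the CD8-only against CD4-only test in 4 alternatives and was called lower in each, from -2.67 to -3.18. In the Foxp3 comparison it was called lower without a filter (-2.78, adjusted p 0.00869 by edgeR) and not with DESeq2 (-2.74, adjusted p 0.198). All of these fits kept both lymph node libraries, where 1 barcode held 17 of 34 (control) and 28 of 30 (CD4-Cre) CD4-only Foxp3-zero Il2 UMIs. No class fit was run without those barcodes.

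Leaving out 1 library at a time changed further signs. In the Foxp3 comparison Stat5b ran from -0.016 to 0.23, below 0 without lymph node CD4-Cre (-0.012) or lymph node control, and it was -0.0065 with at least 2 Foxp3 UMIs. For CD8-only against CD4-only Stat5a ran from -0.36 to 0.012, above 0 without pancreas control.

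Between genotypes 418 of 446 ratios stayed within their interval. Members meeting the rule in pancreas Foxp3-positive barcodes fell from 2 to 1 with doublets kept, a 5% mitochondrial limit, T barcodes from marker UMIs or thinning, and in CD8-only from 2 to 1 with T barcodes from marker UMIs, thinning, 10 CPM added or without the top barcode. In pancreas CD4-only 1 met it at 5% mitochondrial UMIs or with T barcodes from marker UMIs. With thinning 0 did in NK, pancreas cDC and lymph node cDC, and in pancreas cDC 1 did with doublets kept and 3 did without the top barcode or in the mature cluster alone. The Il2ra ratio in pancreas cDC was -1.19 with thinning (-4.66 to 1.61). In lymph node CD4-only 2 met it at 5% mitochondrial UMIs, and 0 with 10 CPM added or without the top barcode; in lymph node cDC 0 did with TMM or without the top barcode. The share of Foxp3-positive barcodes with Il2ra was 38.2%, 31.1%, 42.6% and 40.3% without thinning, and 28.9% and 30.1% in lymph node at 2000 UMIs. With 1 CPM added, 13 of 21 genes stayed among the 3 most alike. Removal of the top barcode and the mature dendritic cluster alone were chosen after seeing the data.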
